A study of Mus musculus with 4 samples.

Results

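The genes described here encode the junctions of the intercalated disc, the specialised border at which neighbouring heart muscle cells meet end to end. There were 10 of them among the 22322 genes of the count files, picked by symbol: the connexins Gja1, Gja5 and Gjc1, the adherens junction genes Cdh2 and Ctnna3, and the desmosome genes Dsp, Pkp2, Jup, Dsg2 and Dsc2. All 10 had enough counts to be tested, and Gja5 was the scarcest of them.

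A heart muscle cell is coupled to the next both electrically and mechanically. Connexins form hexameric channels that dock across the gap between cells and let the electrical impulse pass. Adherens junctions tie the actin filaments of one cell to those of the other through a transmembrane cadherin and cytoplasmic catenins, and desmosomes tie the desmin filaments through desmosomal cadherins, plakoglobin, plakophilin and desmoplakin. Inherited defects of the desmosome genes are a known cause of arrhythmogenic cardiomyopathy, and loss of connexin 43 from the disc is a known feature of failing myocardium.

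RNA-seq libraries of mouse cardiomyocytes were compared between 2 hearts after a sham operation and 2 after transverse aortic constriction (TAC), a surgical narrowing of the aortic arch against which the left ventricle then has to pump. Per the methods of the study, male mice were operated at 2 months of age and each library came from part of the myocytes of 1 heart, released by Langendorff perfusion, with the RNA integrity number above 8. Cells were taken at 14 weeks, which the methods give both as time after the operation and as age. For strain and genotype, the sources used here give nothing, and no transgene is named for either group. Ketamine and xylazine are named as the anaesthetic of the operation. Where a pair of values is given for a group, replicate 1 comes first.

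The 4 libraries held 24237777 to 32118323 counts, and 12499 genes were tested. The mitochondrially encoded protein genes took 47.42% of the counts in TAC 1 and 39.84% to 40.85% in the other 3 libraries. The 10 cardiomyocyte markers, such as Myh6, Actc1 and Tnnt2, summed to 79041 to 87842 CPM (library-scaled counts), and 0 of the 10 passed the test in either direction (edgeR quasi-likelihood, Benjamini-Hochberg adjusted p under 0.05), with 3 at an unadjusted p under 0.05. The 2 sham libraries stood far apart in their atrial markers, with a summed level over 6 genes of 83.1 CPM in sham 1 and 6.64 in sham 2. TAC 1 (28.9 CPM) and TAC 2 (40.0 CPM) lay between them. Summed levels of the 12 endothelial, 10 fibroblast, 9 mural and 8 macrophage markers were lower in both TAC libraries than in both sham libraries. In bulk RNA, fewer cells of a type and less RNA per cell cannot be told apart. With 2 libraries a group, an exact permutation test of 1 gene cannot go below p = 0.333, so each p below rests on the spread that edgeR pools over genes.

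Dsg2, Dsc2 and Gja5 were the junction genes called lower in TAC, and the genes for the core of the adherens junction and for the desmosomal plaque did not pass the test. Of the 10 genes, 3 were called lower and 0 higher by edgeR, where 2.43% of all tested genes were called lower and 2.58% higher. At an unadjusted p under 0.05 there were 5 of 10, against 27.5% of all tested genes. The median log2 fold change over the 10 genes was -0.23, against -0.01 over all tested genes. In all 10 the 2 TAC libraries lay on 1 side of both sham libraries, 8 below and 2 above, but 60.1% of all tested genes had groups that did not overlap. With counts scaled by library totals instead of TMM, the method of edgeR that sets libraries level on the bulk of their genes, the groups were apart in 8 of the 10, all 8 lower, and overlapped for Pkp2 and Ctnna3, and 56.4% of all tested genes were apart. That scaling also moved the median of all genes, to -0.20.

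**Figure D1:**
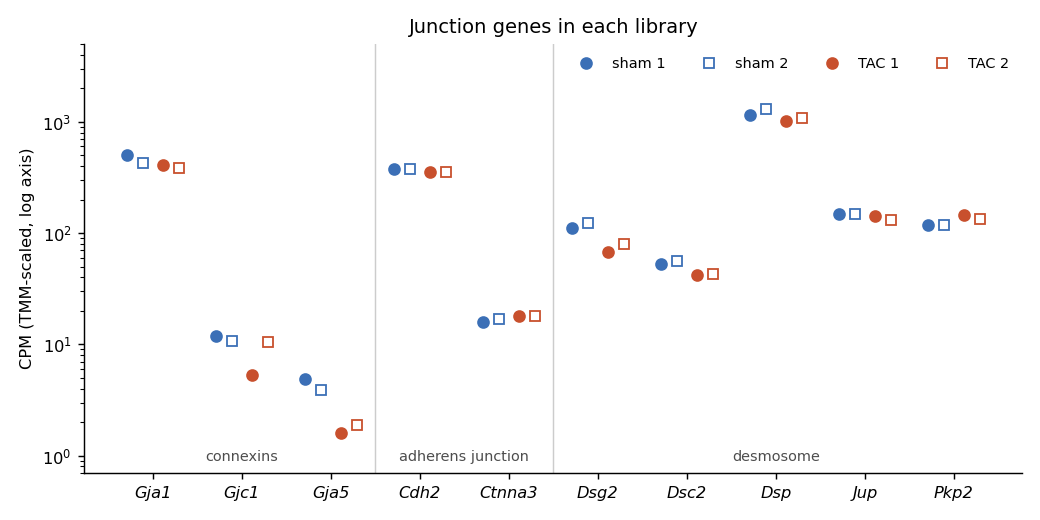
Level of each junction gene in each of the 4 libraries, in CPM on TMM-scaled library sizes (log axis), with sham in blue and TAC in red, replicate 1 filled and replicate 2 open. Dsg2, Dsc2 and Gja5 lie lower in both TAC libraries, and Gjc1 is low in TAC 1 alone (5.34 CPM).

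Per transcript length, connexin 43 (Gja1), the main ventricular gap junction protein, and desmoplakin (Dsp) were the most abundant junction RNAs. In sham, the deposited FPKM (fragments scaled by transcript length and library size) was 162 ± 26.5 (SD, n = 2) for Gja1 and 145 ± 5.26 for Dsp, and the libraries of these 2 genes overlapped. N-cadherin (Cdh2) followed at 102 ± 4.61, then Jup at 49.2 ± 1.74, Pkp2 at 43.3 ± 1.11, Dsg2 at 21.7 ± 0.431, Dsc2 at 13.01 and 13.05 in its libraries, Gjc1 at 6.36 ± 0.658, Ctnna3 at 4.75 ± 0.0707 and Gja5 at 1.73 ± 0.693 FPKM, each apart from its neighbours. In TAC the order was Gja1, Dsp, Cdh2, Pkp2, Jup, Dsg2, Dsc2, Ctnna3, Gjc1 and Gja5, from 121 ± 8.14 down to 0.665 ± 0.332 FPKM. Pkp2 stood above Jup in both TAC libraries and below it in both sham libraries. In TAC, Gja1 and Dsp overlapped, as did Ctnna3 and Gjc1. Levels in CPM are not corrected for length, so ratios of CPM or counts between genes are compared below only across libraries.

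Among the connexins, Gja5 was lower in TAC and Gja1 was not called. Gja1 (ENSMUSG00000050953, chr10:56377330-56402513, plus strand, GRCm38, GENCODE M21) had 505 and 422 CPM in the sham hearts and 406 and 385 in the TAC hearts. Sham 1 was the high library, while sham 2 stood only slightly above TAC 1. The log2 fold change was -0.23 ± 0.10 (SE), with a 95% interval of -0.46 to 0.00 and an edgeR adjusted p of 0.186. Without sham 1 it was -0.09, and with total-count scaling -0.42.

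Connexin 40 (Gja5), a fast-conducting connexin of the atria, the His-Purkinje system and arterial endothelium, was the gene with the largest fall among the 10. Gja5 (ENSMUSG00000057123, chr3:96904693-97077416, plus strand) had 155 and 111 counts in the sham hearts and 45 and 46 in the TAC hearts. These correspond to 4.9, 3.86, 1.61 and 1.88 CPM, so that both sham libraries were above both TAC libraries by a wide margin. The level in TAC was 39.8% of that in sham, a log2 fold change of -1.33 ± 0.24 (95% interval -1.89 to -0.76, edgeR adjusted p = 0.0296). Without sham 1 the log2 fold change was -1.14 with an edgeR adjusted p of 0.0762, and without TAC 1 it was -1.22 with an adjusted p of 0.0866, so the call was lost in both cases. The annotated span of Gja5 overlaps 4 other gene models, Gpr89 among them, and the sources used here do not state whether counting used strand. The transcript length implied by count and FPKM also differed between libraries for Gja5, at 2.42 and 3.24 kb in sham and 3.26 and 2.11 kb in TAC, and on the deposited FPKM the log2 fold change was -1.28 with a limma adjusted p of 0.121.

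Connexin 45 (Gjc1), a low-conductance connexin of nodal tissue and the developing heart, differed between the TAC hearts. Its level was 11.9 and 10.7 CPM in the sham hearts and 5.34 and 10.4 in the TAC hearts. TAC 2 was thus next to the sham libraries, and TAC 1 was alone at the low end. Over both TAC libraries the log2 fold change of Gjc1 (ENSMUSG00000034520, chr11:102799579-102819700, minus strand) was -0.53 ± 0.27 (95% interval -1.17 to 0.11, edgeR adjusted p = 0.252). It was -0.12 without TAC 1 and -1.08 without TAC 2, where it passed the edgeR test with an adjusted p of 0.00895.

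The share of each connexin in the summed FPKM of Gja1, Gja5, Gjc1, Gja3 and Gja4 shows how far connexin 43 predominated. Gja1 made up 91.2% and 90.4% in the sham hearts and 94.0% and 91.3% in the TAC hearts. Gja5 made up 1.12% and 0.784% in the sham libraries and 0.352% and 0.65% in the TAC libraries. Among the connexins outside the 10 genes, Gja4, a vascular connexin, had 2.84 and 2.43 CPM in sham and 1.29 and 1.64 in TAC (log2 -0.85 ± 0.28, edgeR adjusted p = 0.106). Gja3 had 16.6 and 17.3 CPM in sham and 12.3 and 12.9 in TAC (log2 -0.43 ± 0.11, edgeR adjusted p = 0.0619). Both are named after their values were seen.

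Markers of other cell types moved in the same direction as Gja5. The 12 endothelial markers summed to 537 and 423 CPM in sham and 245 and 348 in TAC. All 12 had a negative fold change, with a median log2 of -0.74, and 3 were called lower. The 7 conduction markers summed to 53.0 and 49.5 CPM in sham and 36.0 and 37.3 in TAC. Of these, Irx3, a transcription factor of the ventricular conduction system, was called lower (26.5, 25.4, 16.7 and 17.6 CPM, log2 -0.60 ± 0.10, edgeR adjusted p = 0.0212), while the sinus node gene Isl1 had at most 2 counts in any library. Atrial markers did not separate the groups, with 0 called of the 5 that could be tested out of 6. Per 100 CPM of the endothelial genes there were 0.913 and 0.911 CPM of Gja5 in the sham hearts and 0.66 and 0.541 in the TAC hearts, a ratio chosen after the values were seen. The part of these cell types in the level of Gja5 was not tested.

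**Figure D2:**
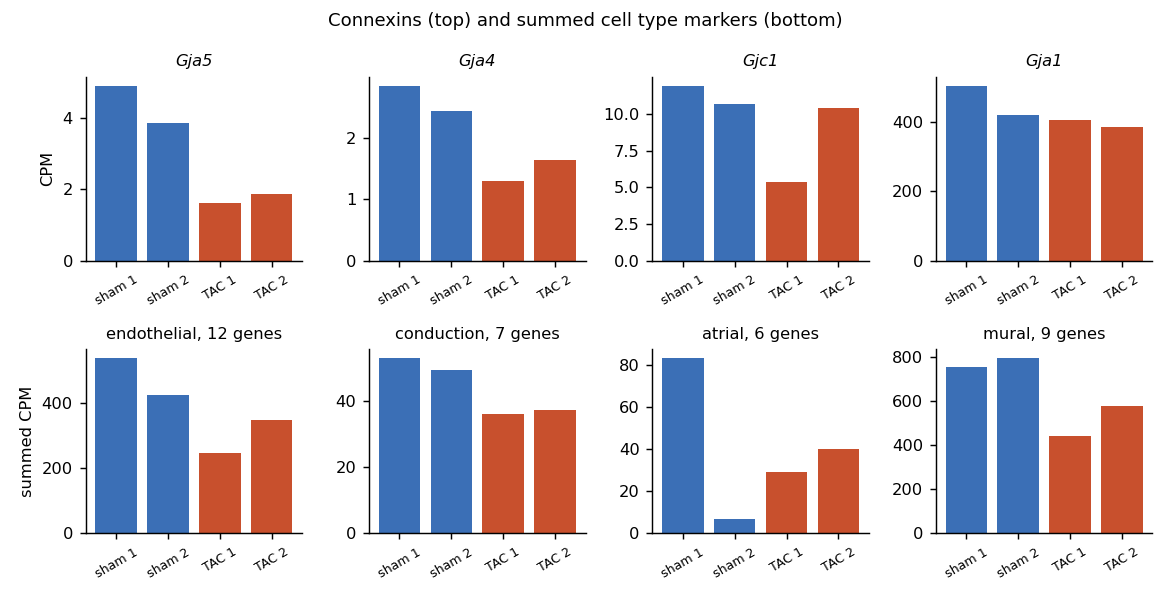
Bars give the CPM of 4 connexin genes (top) and the summed CPM of 4 marker lists (bottom) in each library, sham in blue and TAC in red. Gja5, Gja4 and the endothelial, conduction and mural lists were lower in both TAC libraries. Gjc1 was low in TAC 1 alone, and the atrial list was highest in sham 1 and lowest in sham 2.

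Promoter windows of the most abundant connexin and of the connexin that was called are given because these genes sit at the ends of the connexin range. Windows run from 250 bases before to 50 bases after the RefSeq start (GRCm38.p6). Those of 5 of the 10 genes were searched: Gja1, Gja5, Ctnna3, Jup and Dsp. No window was found for Gjc1 and Pkp2, and Cdh2, Dsg2 and Dsc2 were left out of the search. Both strands were searched for 5 motifs, and their background is the share of all 32851 windows of this length that hold a match. The AP-1 letters TGANTCA stood in 7.81% of these windows. The NKX2-5 letters TNAAGTG stood in 11.5%. The factors of the T-box family were searched by AGGTGT, found in 13.7%. The GC box, searched by GGGCGG, stood in 35.7%. The TATA letters TATAAA stood in 13.6%. In the lines below, capitals mark the match found. The Gja1 window (chr10:56377050-56377349, plus strand) held 1 AP-1 match that begins 19 bases upstream of the start, and the Gja5 window (chr3:97032152-97032451, plus strand) held 1 GC box 17 bases upstream.
Gja1: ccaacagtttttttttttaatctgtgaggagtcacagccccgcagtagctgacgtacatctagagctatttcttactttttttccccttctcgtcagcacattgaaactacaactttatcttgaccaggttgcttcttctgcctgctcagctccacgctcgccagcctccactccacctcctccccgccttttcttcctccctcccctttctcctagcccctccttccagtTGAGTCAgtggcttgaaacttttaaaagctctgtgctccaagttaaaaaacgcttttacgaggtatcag
Gja5: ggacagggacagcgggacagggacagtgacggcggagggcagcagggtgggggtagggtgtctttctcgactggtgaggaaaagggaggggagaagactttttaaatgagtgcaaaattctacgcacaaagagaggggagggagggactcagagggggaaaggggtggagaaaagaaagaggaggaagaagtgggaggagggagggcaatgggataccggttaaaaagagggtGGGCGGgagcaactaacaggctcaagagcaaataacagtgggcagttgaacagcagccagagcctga
None of the other 4 motifs matched in either window, which says only that these letters are not there. A match describes the sequence and is not a measured site.

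Neither of the adherens junction genes Cdh2 and Ctnna3 was called. N-cadherin (Cdh2, ENSMUSG00000024304, chr18:16588877-16809246, minus strand), the classical cadherin of the heart, had 379.9 and 377 CPM in the sham hearts and 353 and 354 in the TAC hearts. The libraries of each group almost coincided and the groups were narrowly apart. The log2 fold change was -0.10 ± 0.07 (95% interval -0.26 to 0.06, edgeR adjusted p = 0.384).

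Alpha-T-catenin (Ctnna3, ENSMUSG00000060843, chr10:63430098-65003667, plus strand), the heart-enriched alpha-catenin that also binds plakophilin-2, had 15.8 CPM in sham 1, 17.0 in sham 2, and 17.9 in both TAC 1 and TAC 2. The log2 fold change was 0.13 ± 0.10 (95% interval -0.11 to 0.37, edgeR adjusted p = 0.44), and with total counts it was -0.06, beside -0.20 for the median gene. Of its partners, alpha-E-catenin (Ctnna1) stood at -0.07 on the log2 scale (edgeR adjusted p = 0.582) and beta-catenin (Ctnnb1) at 0.00 (adjusted p = 0.991). Vinculin (Vcl), which reinforces the link to actin, had 0.02 (edgeR adjusted p = 0.924). With total counts these became -0.26 for Ctnna1, -0.19 for Ctnnb1 and -0.16 for Vcl, next to the shift of -0.20 in the median gene. Other adherens genes of the list, named after their values were seen, were lower in both TAC libraries without passing: afadin (Afdn) at -0.45 ± 0.14 (edgeR adjusted p = 0.0951, called in 4 of 11 alternatives), Nectin2 at -0.35 ± 0.13 (adjusted p = 0.137) and Nectin3 at -0.39 ± 0.19 (adjusted p = 0.224). Cdh13 went the other way, with 157 and 151 CPM in sham and 175 and 176 in TAC (log2 0.19 ± 0.07, edgeR adjusted p = 0.14). Of the 8 other adherens genes, 5 had a negative and 3 a positive fold change.

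Of the desmosome genes, the cadherins Dsg2 and Dsc2 were called lower and the plaque genes did not pass the test, a difference between genes that was not itself tested. Desmoglein-2 (Dsg2, ENSMUSG00000044393, chr18:20558074-20604521, plus strand), the only desmoglein with more than 4 counts in a library among the 2 listed here, had 3554 and 3508 counts in the sham hearts and 1897 and 1944 in the TAC hearts. These were 112, 122, 68.0 and 79.5 CPM, and the highest TAC library was well below the lowest sham library. The level in TAC was 63.0% of that in sham, a log2 fold change of -0.67 ± 0.10 (95% interval -0.89 to -0.44, edgeR adjusted p = 0.0149). Dsg2 was called in 11 of 11 alternatives, with log2 fold changes of -0.86 to -0.56 and adjusted p-values of up to 0.0421. It was -0.72 without sham 1 and -0.56 without TAC 1.

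Desmocollin-2 (Dsc2, ENSMUSG00000024331, chr18:20030633-20059554, minus strand), the partner cadherin of desmoglein-2, had 52.5 and 56.6 CPM in the sham hearts and 42.0 and 42.6 in the TAC hearts. The TAC libraries nearly coincided, below both sham libraries. The level in TAC was 77.5% of that in sham, a log2 fold change of -0.37 ± 0.08 (95% interval -0.56 to -0.18, edgeR adjusted p = 0.0473). This call was close to the threshold. It was lost when any 1 library was left out, with edgeR adjusted p-values of 0.0537 without TAC 2, 0.0579 without sham 1, 0.133 without TAC 1 and 0.156 without sham 2, while the fold change stayed between -0.42 and -0.31. With the replicate number as a block, the edgeR adjusted p was 0.076.

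Desmoplakin (Dsp, ENSMUSG00000054889, chr13:38151294-38198577, plus strand), which anchors the plaque to desmin, had 1153 and 1303 CPM in the sham hearts and 1026 and 1081 in the TAC hearts. Its groups were apart by less than the distance between the sham libraries. The log2 fold change was -0.22 ± 0.09 (95% interval -0.43 to -0.01, edgeR adjusted p = 0.171). Plakoglobin (Jup, ENSMUSG00000001552, chr11:100368958-100397763, minus strand), a plaque protein shared by desmosomes and adherens junctions, had 147, 148, 143 and 130.5 CPM in sham 1, sham 2, TAC 1 and TAC 2 (log2 -0.11 ± 0.08, 95% interval -0.29 to 0.06, edgeR adjusted p = 0.365).

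Plakophilin-2 (Pkp2, ENSMUSG00000041957, chr16:16213318-16272712, plus strand), the armadillo protein of the cardiac desmosome, was above sham in both TAC libraries. It had 117 and 119 CPM in the sham hearts and 146 and 134 in the TAC hearts. The log2 fold change was 0.24 ± 0.08 (95% interval 0.06 to 0.42), but the edgeR adjusted p was 0.101. With total counts it was 0.05 and the groups overlapped. Desmin (Des), the filament that desmosomes hold, had 1495 and 1595 CPM in sham and 1983 and 2005 in TAC (log2 0.37 ± 0.08, edgeR adjusted p = 0.0529). Desmin was called higher in 2 of 11 alternatives, by DESeq2 (adjusted p = 0.000454) and by edgeR with no filter on low counts (adjusted p = 0.0149).

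Within the summed FPKM of the 5 desmosome genes, Dsg2 made up 7.92% and 8.03% in the sham hearts and 5.12% and 5.98% in the TAC hearts. The share of Pkp2 was 16.4% and 15.5% in sham and 21.7% and 19.9% in TAC. Dsp remained the largest part, at 49.7% to 54.1% over the 4 libraries. Several desmosome genes known from epithelia had few or no counts. Pkp1, Dsc1 and Dsc3 had 0 counts in every library, which allows up to 0.0948 to 0.123 CPM per library, and Pkp3 had at most 2 counts and Dsg3 at most 4. Others of the list, named after their values were seen, were present: Ppl had 14 to 71 counts and Perp 3745 to 4561 (log2 0.36 ± 0.08, edgeR adjusted p = 0.0538). The epithelial markers Cdh1 and Epcam had at most 1 count in any library. Other markers of that list, named after their values were seen, were present in every library: Upk3b (45 to 107 counts), Msln (20 to 52) and Wt1 (24 to 49). Of the 8 epithelial markers, 4 could be tested and 0 were called. Krt18, a keratin named after its value was seen, stood at 2.43 on the log2 scale (edgeR adjusted p = 0.0509). Dsg2 and Dsc2 were lower in both TAC libraries, as were the summed fibroblast markers (509 and 350.3 CPM in sham, 196 and 272 in TAC). The summed mural markers were lower too (757 and 796 CPM in sham, 440.1 and 578 in TAC). Between the sham libraries, Dsg2 (112 and 122 CPM) and Dsc2 (52.5 and 56.6) were higher in sham 2, where the fibroblast sum was lower. The part of those cells in the levels of Dsg2 and Dsc2 was not tested.

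Ratios between 2 genes within a library do not depend on how libraries are scaled, and they are given with no test. Groups were apart for 60.1% of all tested genes taken singly, and no such share was worked out for ratios. Per 100 counts of Dsp there were 10.2 and 9.17 counts of Pkp2 in the sham hearts and 14.2 and 12.4 in the TAC hearts, so the TAC mean was 1.37 times the sham mean and the groups were apart. Per 100 counts of Dsg2 there were 46.7, 46.5, 61.7 and 53.6 counts of Dsc2 in the same order (1.24 times), apart as well. Dsc2 counts thus stood higher relative to Dsg2 in both TAC libraries. Per 100 counts of Gja1 there were 0.97 and 0.914 counts of Gja5 in sham and 0.397 and 0.489 in TAC (0.47 times).

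Counts of alpha-T-catenin stood higher in both TAC libraries relative to Cdh2 and to Ctnna1. These ratios were not tested either, and neither Ctnna3 nor Cdh2 nor Ctnna1 was called. There were 4.15 and 4.5 counts of Ctnna3 per 100 of Cdh2 in sham and 5.08 and 5.07 in TAC (1.17 times), and 4.35 and 4.31 per 100 of Ctnna1 in sham and 5.06 and 4.9 in TAC (1.15 times). Jup per 100 counts of Ctnnb1 was 62.2 and 62.5 in sham and 58.9 and 56.2 in TAC (0.92 times). The groups overlapped for Gjc1 to Gja1, for Jup to Dsp and for Gja1 to Cdh2. A pair of ratios chosen after the values were seen set Dsg2 against genes that were not called: per 100 counts of Pkp2 there were 95.7 and 102 counts of Dsg2 in sham and 46.6 and 59.5 in TAC, and per 100 counts of Cdh2 there were 29.6 and 32.3 in sham and 19.3 and 22.5 in TAC.

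**Figure D3:**
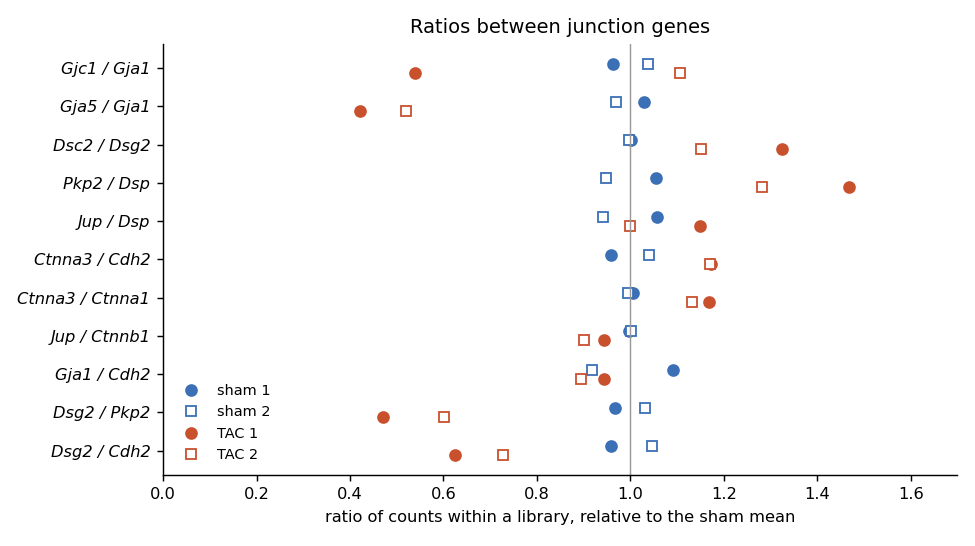
Each point is the ratio of counts of 2 genes in 1 library, divided by the mean of the sham libraries, with sham in blue, TAC in red, replicate 1 filled and replicate 2 open. Ratios with Dsg2 or Gja5 as numerator lie left of 1 in both TAC libraries, and Pkp2 to Dsp and Dsc2 to Dsg2 lie right of 1.

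Among the other genes of the disc, every call was in the higher direction. Of 48 listed genes, 40 had enough counts to be tested. By edgeR 9 were called higher and 0 lower, where 2.58% of all tested genes were called higher and 2.43% lower. An unadjusted p under 0.05 was reached by 22 (27.5% over all tested genes), and the median log2 fold change of the 40 was 0.01. DESeq2 called 12 higher and 1 lower. The calls lay mainly in the actin-linked proteins that join the last sarcomere to the membrane, of which 6 of 8 were called higher, with a median of 0.79. Enah, an actin elongation factor, had 112 and 105 CPM in sham and 217 and 245 in TAC (log2 1.09 ± 0.09, edgeR adjusted p = 0.00342). The Xin repeat protein Xirp2 had 643 and 713 CPM in sham and 1305 and 1412 in TAC (log2 1.00 ± 0.09, edgeR adjusted p = 0.00445). Its relative Xirp1 (log2 0.79), the anchor protein Nrap (0.79), filamin C (Flnc, 0.83) and zyxin (Zyx, 0.62) rose too, although the call of Zyx was lost in 3 of 11 alternatives, total-count scaling among them. Myzap at 0.20 and Vasp at -0.19 did not pass.

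Among 10 disc membrane proteins, 3 were called higher, among them the Popeye proteins Popdc3 (20.2 CPM in both sham libraries, 35.3 and 37.5 in TAC, log2 0.85 ± 0.09, edgeR adjusted p = 0.00532) and Bves (70.7 and 69.2 CPM in sham, 87.5 and 90.9 in TAC, log2 0.35 ± 0.07, edgeR adjusted p = 0.041). The call of Bves was lost in 8 of 11 alternatives. The related Popdc2, had 487 and 531 CPM in sham and 474 and 484 in TAC (log2 -0.09 ± 0.08, edgeR adjusted p = 0.497). ZO-1 (Tjp1), the scaffold at the rim of connexin 43 plaques, had 62.9 and 60.2 CPM in sham and 53.9 and 52.7 in TAC (log2 -0.21 ± 0.07, edgeR adjusted p = 0.132). Of the 7 connexin partners, the 8 other adherens genes and the 4 tested other desmosome genes, 0 were called, with 3, 3 and 3 at an unadjusted p under 0.05, a threshold that 27.5% of all tested genes passed.

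**Figure D4:**
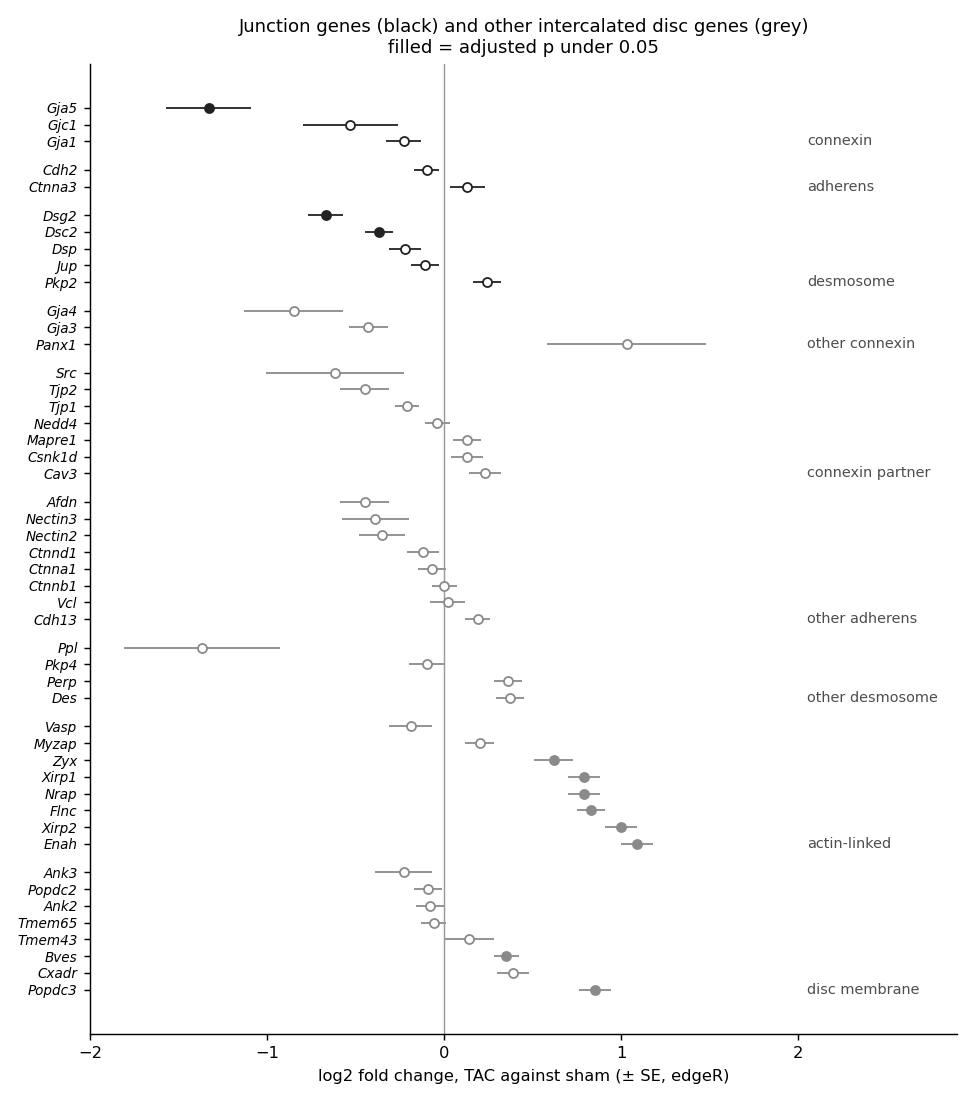
Points give the edgeR log2 fold change of TAC against sham with its SE for the 10 junction genes (black) and other disc genes (grey), filled where the adjusted p is under 0.05. Filled black points lie left of 0 (Gja5, Dsg2, Dsc2) and the filled grey points lie right of 0.

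How far each fold change rested on scaling, tool and single libraries differed between the junction genes. Dsg2 kept its call throughout. Gja5 was called in 7 of 10 alternatives (the stricter filter removed it from the test) and Dsc2 in 5 of 11. The 6 genes Gja1, Cdh2, Ctnna3, Dsp, Pkp2 and Jup were called in 0 of 11 of these, with log2 fold changes between -0.42 and 0.31, and Gjc1 in 1 of 11. Ctnna3 lay above the median of all genes with TMM (0.13 against -0.01) and with total counts (-0.06 against -0.20).

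**Figure D5:**
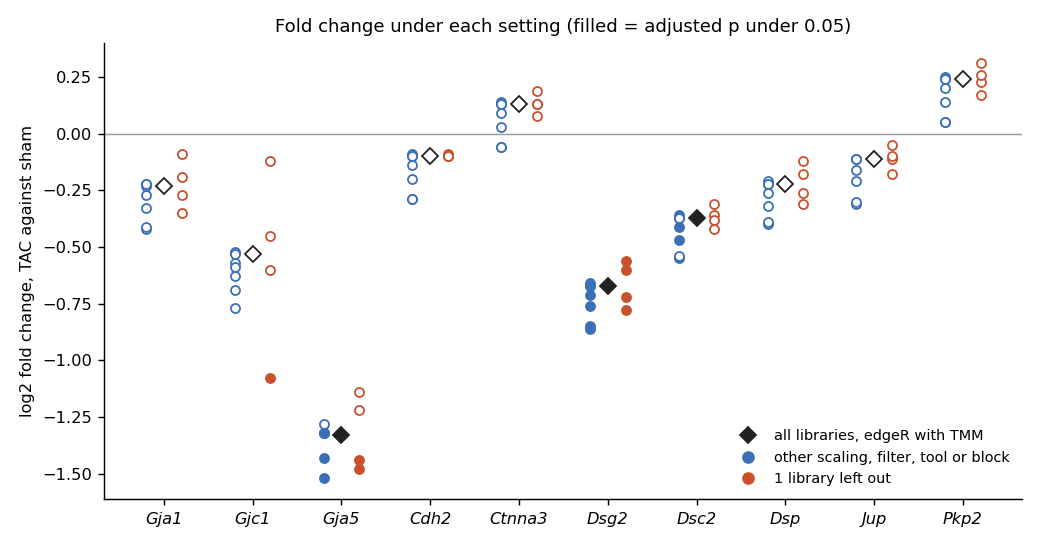
Log2 fold change of each junction gene with all libraries (black diamonds), under other scalings, filters, tools or a block (blue) and with 1 library left out (red), filled where the adjusted p is under 0.05. Dsg2 is filled at every setting, between -0.86 and -0.56, and Gjc1 spreads from -1.08 to -0.12.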

How the data were processed

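Groups and replicate numbers came from the sample titles. The authors deposited, for each gene in each of the 4 libraries, an expected count (estimated, so not always whole) and the matching FPKM. Bowtie2 2.2.8, StringTie 1.3.1 and mm10 are named in the submitters' processing notes, without roles; for the counting program, the annotation and strand, the sources used here give nothing. Between 1432 and 1519 genes per library had a count that was not whole, and counts were rounded. Totals were 28844755 (sham 1), 27678165 (sham 2), 32118323 (TAC 1) and 24237777 (TAC 2). The common biological coefficient of variation was 10.5%; counting error adds to it for genes with few counts, such as Gja5 (45 to 155 counts). Limits on genes with 0 counts (3 counts per library) cover counting error only.

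The rounded counts went through edgeR 4.0.16 in R 4.3.3: filterByExpr, TMM factors (1.097, 1.04, 0.868 and 1.009 in that order), glmQLFit and glmQLFTest on group, with Benjamini-Hochberg adjustment over 12499 genes and calls at an adjusted p under 0.05. The fit was tested on simulated data. CPM used TMM-scaled totals. Alternatives were scaling by total counts (as in the study), totals without mitochondrial genes, DESeq2 1.42.0, limma 3.58.1 on log2(FPKM + 0.1), no filter, a filter of at least 5 CPM in 2 libraries, a replicate block, and each library left out. As a check for a library deposited more than once, replicate counts were compared and differed beyond sampling noise (chi-square per degree of freedom 8.08 for sham and 26.71 for TAC). Each library came from 1 heart, so n = 2 mice per group.

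The genes and lists were chosen with earlier results of these data known. Named genes were all 10 junction genes, every called gene of the other disc lists, and Ctnna1, Ctnnb1, Vcl, Tjp1 and Des; a few list genes are counted but not reported here by name. Gene positions came from GENCODE M21 (GRCm38) and promoter windows from RefSeq (GRCm38.p6).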

Additional observations from a re-analysis of the deposited data

How the results depend on the processing

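Left out one at a time, the libraries gave 301 to 1336 called genes (118 to 776 lower, 183 to 560 higher), 1 to 3 called junction genes (all lower) and 0 to 3 disc genes called lower. Without sham 1 or without TAC 1 only Dsg2 remained called of the 10, without sham 2 Dsg2 and Gja5, and without TAC 2 Dsg2, Gja5 and Gjc1. A group of 1 library is assumed to vary like the other group.

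Total counts called 105 genes higher and 423 lower, and totals without mitochondrial genes 188 higher and 450 lower, with 1 disc gene lower (Gja3). limma on FPKM called 195 genes (127 lower, 68 higher), 1 junction gene (Dsg2, lower) and 5 disc genes (all 5 higher). Without a filter 1676 were called (969 lower, 707 higher), with 16 disc genes (4 lower). DESeq2 and the stricter filter each called 1 disc gene lower, Afdn and Gja3.

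Among the genes named by rule, fold changes that turned sign were near 0; the low-count Panx1 ranged from -0.51 to 1.37. Ctnna3 was -0.06 with total counts and with FPKM. Ctnnb1 was -0.19 (total counts), -0.10 (totals without mitochondrial genes), -0.18 (FPKM), -0.04 (stricter filter) and -0.03 (without TAC 1). Vcl was -0.16, -0.08, -0.17 and -0.02 under the first 4 of these, -0.10 without sham 1 and -0.03 without TAC 2. Leaving out 1 library gave -0.03 to 0.04 for Ctnnb1 and -0.10 to 0.15 for Vcl. The cause was not tested.

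The methods speak of pairs of sham and TAC mice, but not which libraries form a pair. Deviations of same-numbered libraries correlated at -0.26, which with 2 numbers does not settle the pairing. The replicate block called 566 genes and 2 junction genes, and Dsc2 (adjusted p = 0.076) and Bves were not called. The crossed block, chosen after seeing the data, called 2131 genes (1163 lower, 968 higher), 4 junction genes (1 higher) and 16 disc genes (4 lower).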
